A study of Homo sapiens with 6 samples.

Results

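The 6 genes followed here handle heme and iron in RKO cells, an established human colorectal carcinoma line. HMOX1, FTL, NCOA4, TFRC, PCBP1 and GLRX5 were taken by gene name from a deposited table of 3511 genes, and all 6 had a row. RNA was sequenced from wild-type RKO cells after 48 h. Fasting medium held 1% serum and glucose at 1 g/L (3 libraries), and control medium held 10% serum and glucose at 4.5 g/L (3 libraries). Serum and glucose were lowered together, so their parts cannot be told apart, and a single cell line was used. The labels do not say whether libraries of a group are separate cultures, and p-values therefore cover only the spread among these libraries, which can be technical.

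Cells take up iron bound to transferrin through the transferrin receptor and store what they do not use in ferritin, a shell of heavy and light chains. Ferritin is returned to use when the receptor NCOA4 carries it to the lysosome, and heme gives up its iron when heme oxygenase opens the ring. Iron-regulatory proteins bind hairpins called iron-responsive elements when iron is scarce, which stabilises the messenger of the receptor and blocks translation of ferritin. HMOX1 and FTL are also known targets of the antioxidant factor NRF2, and BACH1 is a repressor of HMOX1 that is released by heme.

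Iron-responsive elements are shown because they are the sequences through which iron is known to act on FTL and TFRC messengers. In GENCODE 29 transcripts, the search described below found 1 such element in the 5′ UTR of FTL and 4 in the 3′ UTR of TFRC. An element with another loop or an imperfect stem would be missed. The loop CAGTGN, the N being any base, is in capitals, and the DNA letters run 5′ to 3′ along the messenger.
FTL element: ctcttgcttcaaCAGTGTttggacggaac
TFRC element 1: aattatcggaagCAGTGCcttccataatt
TFRC element 2: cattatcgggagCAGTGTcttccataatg
TFRC element 3: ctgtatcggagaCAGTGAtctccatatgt
TFRC element 4: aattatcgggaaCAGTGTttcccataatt

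On GRCh38 the FTL element lies at chr19:48965335-48965363 on the plus strand, in exon 1 of 4. The TFRC elements lie on the minus strand in exon 19 of 19, element 1 at chr3:196050979-196051007 and element 4 at chr3:196050463-196050491. The search asked for a C, 5 bases, CAGTGN and then 5 bases that pair with the first 5, with G-T pairs allowed, on the transcript strand of the longest protein-coding transcript of each gene. It matched 260 of 19684 protein-coding genes (1.32%) and 46 of the 3071 protein-coding genes in the table (1.5%). No match was found in the transcripts of HMOX1, NCOA4, PCBP1 or GLRX5, which says only that these letters are not there. The libraries measure messenger levels, not translation.

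The table is limited to genes that the authors had called at an adjusted p under 0.05, which is 11.8% of the 29845 genes they tested. A gene outside it is described here only as not listed. The 6 members were therefore chosen among genes already known to differ, and the size and spread of their changes, not the fact of a change, are what the values can show. The groups did not overlap for any member, and this held for 100% of listed genes. Values are normalized counts, which are reads divided by 1 size factor per library. Libraries held 4187326 to 5071791 reads in listed genes in fasting medium and 4017618 to 5602177 in control medium, and total depth is unknown. Members had 264 to 67228 reads per library, so counting error alone was 0.386% to 6.15% of a value.

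Fasting replicate 3 stood apart from the other fasting libraries by transcript length. Across 2886 listed genes (mean normalized count of 100 or more in either medium) its log2 difference from the mean of fasting replicates 1 and 2 had a Spearman correlation of -0.72 with transcript length. Genes are not independent replicates, so this describes the library. Each member is given below with its value in that library. The stress and RNA quality list (heat shock and immediate early genes) had 8 of 10 genes listed, all 8 higher in fasting medium, and their summed level was 63527 to 77925 normalized counts there, against 7891 to 8512 in control medium. Its part in the results was not tested. Of 6 epithelial markers only KRT18 was listed, at 1959 to 3402 normalized counts in fasting medium and 656 to 757 in control medium. Of 5 markers of other cells only VIM was listed, at 73.6 to 105 normalized counts in fasting medium and 149.7 to 161 in control medium.

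In fasting medium HMOX1, FTL, NCOA4 and TFRC rose, and PCBP1 and GLRX5 fell. The samples are bulk RNA, in which fewer cells that express a gene and less of its RNA per cell cannot be told apart. The test was limma on log2(normalized count + 1), with Benjamini-Hochberg adjustment over the 29845 genes the authors tested and a threshold of 0.05. These 4 rises and 2 falls stand beside 49.7% of listed genes called higher and 44.6% called lower, 94.3% in all. The called genes amount to 11.1% of all genes the authors tested. The median log2 fold change of the 6 members was 0.73, beside 0.53 over all listed genes. Log2 fold changes are fasting minus control throughout, with standard errors (SE) from the same fit.

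**Figure D1:**
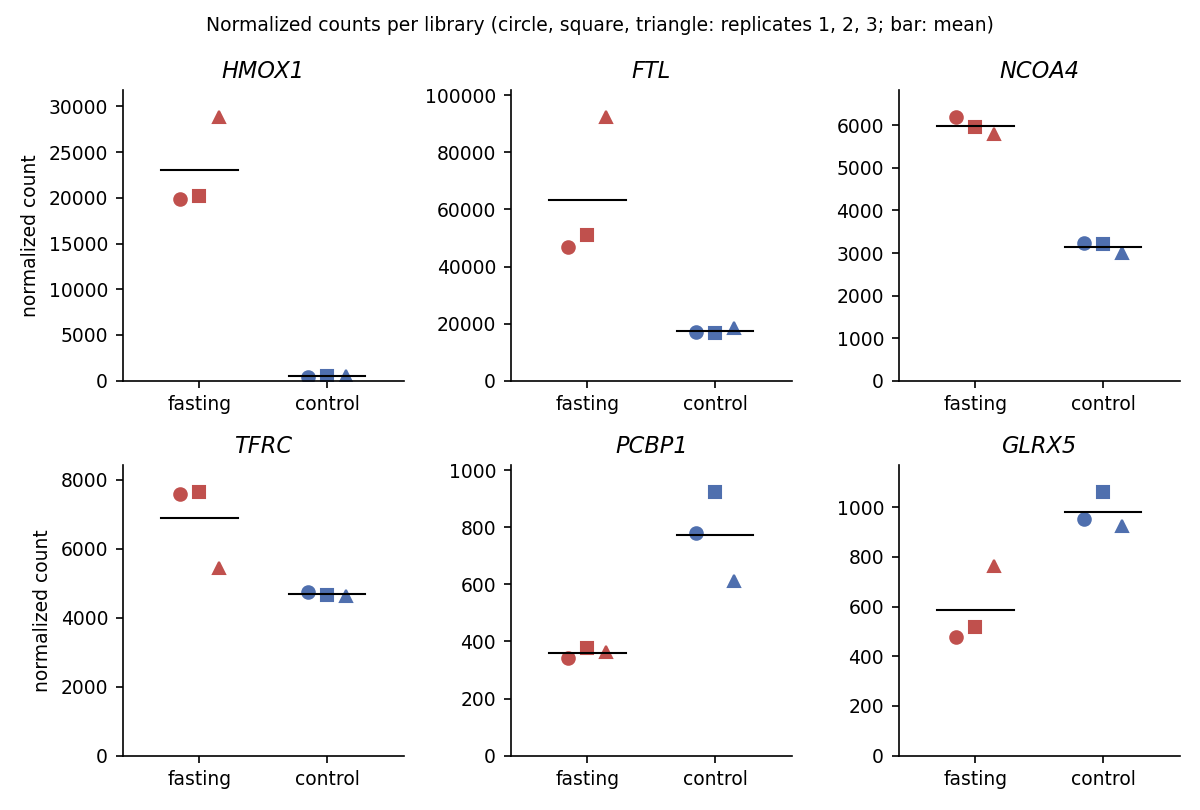
Normalized counts of the 6 members in each library, on linear axes that start at 0, with fasting medium on the left and control medium on the right of each panel. Circles, squares and triangles are replicates 1, 2 and 3 and bars are means (n = 3 each). Fasting replicate 3 is the highest fasting library for HMOX1, FTL and GLRX5 and the lowest for NCOA4 and TFRC.

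HMOX1 (ENSG00000100292) encodes heme oxygenase-1, the stress-inducible enzyme that splits heme into biliverdin, carbon monoxide and iron. It had 19889, 20223 and 28849 normalized counts in fasting replicates 1 to 3, against 451, 492 and 559.6 in control replicates 1 to 3. The lowest fasting library lay far above the highest control library, and fasting replicate 3 was the highest of all. HMOX1 averaged 22987 ± 5079 in fasting medium and 501 ± 55.0 in control medium (SD, n = 3 each). Its log2 fold change was 5.50 (SE 0.16, 95% interval 5.13 to 5.87, limma adjusted p = 3.53e-06), and only 3 of the 3511 listed genes had a larger one. The control values rested on 457, 693 and 770 reads. Without fasting replicate 3 the log2 fold change was 5.33, and over the 19 other settings tried it lay between 5.03 and 5.71.

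The rise placed HMOX1 among the more abundant messengers in the table. Per kilobase of transcript it averaged 12616 ± 2788 normalized counts in fasting medium and 275 ± 30.2 in control medium (SD, n = 3 each). By this measure it ranked 29 of 3465 listed genes with a transcript length in fasting medium and 941 in control medium. No other gene of the heme breakdown list (HMOX2, BLVRA, BLVRB and POR) was listed.

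FTL (ENSG00000087086), the ferritin light chain, had 46918, 50957 and 92443 normalized counts in fasting replicates 1 to 3, against 16990.0, 16801 and 18411 in control replicates 1 to 3. All fasting libraries were higher than all control libraries, but fasting replicate 3 lay well above the other fasting libraries. FTL averaged 63439.5 ± 25199 in fasting medium and 17400.4 ± 880.0 in control medium (SD, n = 3 each). The coefficient of variation was thus 39.7% in fasting medium and 5.06% in control medium.

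The log2 fold change of FTL was 1.80 (SE 0.24, limma adjusted p = 1.79e-03), which is 3.48-fold. It was 1.49 without fasting replicate 3 (adjusted p = 1.80e-10) and 1.09 after removal of the length trend. The p of the fit without that library rests mainly on variance pooled over listed genes, which were selected for a difference. FTL had the shortest transcript of the 6 members, at 878 bases. Its value in fasting replicate 3 exceeded the mean of fasting replicates 1 and 2 by 0.92 log2 units. The median of the 200 listed genes nearest to it in length was 0.56, and FTL lay above 94.5% of them. Per kilobase FTL ranked second of 3465 in fasting medium and 8 in control medium. The heavy chain gene FTH1 was not listed. FTL has processed pseudogenes, so the division of reads between copies is uncertain.

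NCOA4 (ENSG00000266412), the receptor that delivers ferritin to autophagosomes, was the member with the least spread in fasting medium. It had 6199.9, 5969 and 5807 normalized counts in fasting replicates 1 to 3, against 3226, 3216 and 3005 in control replicates 1 to 3. The values within each group lay close together and the groups were far apart. NCOA4 averaged 5992 ± 198 in fasting medium and 3149 ± 125 in control medium (SD, n = 3 each), a log2 fold change of 0.93 (SE 0.08, limma adjusted p = 2.15e-04). With scaling to total listed reads it was 0.46 (edgeR adjusted p = 0.0189). Fasting replicate 3 differed from the mean of the other fasting libraries by only -0.07 log2 units, and the genes nearest in length to its 3549 bases had a median of 0.03. NCOA4 also has processed pseudogenes.

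Both listed partners of NCOA4 in the ferritin turnover list were higher in fasting medium as well. TAX1BP1, an autophagy receptor that takes part in ferritin turnover, averaged 1960.3 ± 78.3 normalized counts in fasting medium and 964 ± 60.0 in control medium (SD, n = 3 each). RB1CC1, which encodes the autophagy initiation scaffold FIP200, averaged 2668 ± 671 in fasting medium and 1444 ± 77.8 in control medium. Their log2 fold changes were 1.02 (limma adjusted p = 2.12e-04) and 0.85 (limma adjusted p = 0.0171). Without any 1 library other than fasting replicate 3, RB1CC1 was not called (adjusted p = 0.0526 to 0.0889), nor was it with scaling to total listed reads (log2 fold change 0.43). Without moderation of the variance RB1CC1 was not called either (limma adjusted p = 0.206).

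TFRC (ENSG00000072274), the transferrin receptor through which cells take up iron, showed the smallest rise. It had 7584, 7645 and 5438 normalized counts in fasting replicates 1 to 3, against 4758, 4670.5 and 4616 in control replicates 1 to 3. Fasting replicates 1 and 2 lay together, while fasting replicate 3 fell between them and the control libraries. TFRC averaged 6889 ± 1257 in fasting medium and 4681 ± 71.5 in control medium (SD, n = 3 each), and the log2 fold change was 0.54 (SE 0.14, 95% interval 0.22 to 0.86, limma adjusted p = 0.0417).

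TFRC had the longest transcript of the 6 members, at 5111 bases. Fasting replicate 3 lay 0.49 log2 units below the mean of the other fasting libraries (difference -0.49), and the 200 listed genes nearest in length had a median difference of -0.23. The log2 fold change of TFRC was 0.70 without fasting replicate 3 (adjusted p = 1.72e-08, on variance pooled as for FTL). It was 0.82 with the length trend removed. It was 0.46 to 0.55 without any 1 of the other libraries, and the call was then lost (adjusted p = 0.144 to 0.176). With scaling to total listed reads it was 0.10 and not called. SLC39A14, which imports iron not bound to transferrin, averaged 6042 ± 1018 normalized counts in fasting medium and 3000.2 ± 62.3 in control medium (SD, n = 3 each), a log2 fold change of 1.00 (limma adjusted p = 1.56e-03) that was lost with total-read scaling (0.55). The other 8 genes of that list, SLC11A2 and STEAP3 among them, were not listed.

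PCBP1 (ENSG00000169564), an RNA-binding protein that also carries cytosolic iron to ferritin, fell. It had 343, 378 and 363 normalized counts in fasting replicates 1 to 3, against 780.1, 924 and 613 in control replicates 1 to 3. Here the control libraries spread widely and the fasting libraries lay close together, with coefficients of variation of 4.85% in fasting medium and 20.2% in control medium. PCBP1 averaged 361 ± 17.5 in fasting medium and 772 ± 156 in control medium (SD, n = 3 each). The log2 fold change was -1.08 (SE 0.15, limma adjusted p = 2.22e-03), and the control level was 2.11-fold higher.

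In fasting replicate 3 PCBP1 differed by 0.01 log2 units from the mean of the other fasting libraries, while the genes nearest in length to its 1750 bases had a median of 0.43. With the length trend removed its log2 fold change was -1.43. PCBP1 is an intronless gene (chr2:70087454-70089203, plus strand, GRCh38) that lies within the span of PCBP1-AS1 on the minus strand. The libraries were strand-specific, but no source used here says whether counting used the strand, and reads of both cannot then be told apart. PCBP1-AS1 was not listed.

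PCBP2, a paralog of PCBP1 that also binds iron, went the other way. It had 1757, 1762 and 2690 normalized counts in fasting replicates 1 to 3, against 1036, 1035 and 928 in control replicates 1 to 3, and its log2 fold change was 1.02 (SE 0.17, limma adjusted p = 4.70e-03). Without moderation of the variance PCBP2 was not called (limma adjusted p = 0.0980). Fasting replicate 3 was again the highest library. Per kilobase, PCBP1 averaged 206 ± 10.0 and PCBP2 673 ± 175 normalized counts in fasting medium, while in control medium PCBP1 averaged 441 ± 88.9 and PCBP2 325 ± 20.1 (SD, n = 3 each). The paralog with the higher mean thus differed between the media by this measure, which uses the longest transcript of each gene. In counts not divided by length PCBP2 had the higher mean in both. These means were 2069 against 361 in fasting medium and 999.6 against 772 in control medium. Of 6 cytosolic iron chaperone genes these 2 were listed.

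GLRX5 (ENSG00000182512) encodes a mitochondrial monothiol glutaredoxin that passes on newly made iron-sulfur clusters. It had 479, 519 and 765 normalized counts in fasting replicates 1 to 3, against 955, 1062 and 923 in control replicates 1 to 3. Every fasting library was below every control library, with fasting replicate 3 the nearest to them. GLRX5 averaged 587 ± 155 in fasting medium and 979.9 ± 72.9 in control medium (SD, n = 3 each). The log2 fold change was -0.77 (SE 0.17, 95% interval -1.17 to -0.36, limma adjusted p = 0.0239).

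The difference was larger without fasting replicate 3, at -0.97 (adjusted p = 1.62e-07, on variance pooled as for FTL). With the length trend removed it was also larger, at -1.10. Fasting replicate 3 lay 0.62 log2 units above the other fasting libraries, beside a median of 0.38 for genes of like length. GLRX5 lost its call on leaving out any other library (-0.81 to -0.63, adjusted p = 0.0802 to 0.111) and with RLE scaling (-0.55).

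Of the other iron-sulfur cluster genes, 2 mitochondrial ones were higher in fasting medium. HSPA9, a mitochondrial HSP70 that helps to transfer clusters, averaged 24145 ± 209 normalized counts in fasting medium and 11550.0 ± 18.8 in control medium (SD, n = 3 each), a log2 fold change of 1.06 (limma adjusted p = 1.35e-04). ISCU, the scaffold on which clusters are built, averaged 996 ± 142 in fasting medium and 672 ± 10.2 in control medium, a log2 fold change of 0.56 (limma adjusted p = 0.0132). ISCU lost its call without any 1 control library (adjusted p = 0.0627 to 0.0703), under total-read scaling (0.08) and after removal of the length trend (0.08). Without moderation ISCU was not called either (limma adjusted p = 0.0993). NDOR1, a reductase of the cytosolic assembly pathway, averaged 515 ± 25.6 in fasting medium and 1090.3 ± 123 in control medium, and it fell by 1.08 on the log2 scale (limma adjusted p = 4.52e-04). The other 20 mitochondrial and 8 cytosolic genes of these lists were not listed.

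Heme synthesis genes went both ways. ALAS1, the rate-limiting first enzyme, rose to 2535 ± 198 normalized counts in fasting medium, against 1218 ± 72.1 in control medium (log2 fold change 1.06, limma adjusted p = 2.59e-04). CPOX, a late enzyme of the pathway, fell to 831 ± 43.2 in fasting medium, against 1569 ± 218 in control medium (-0.91, limma adjusted p = 1.37e-03). ABCB10, a mitochondrial transporter needed for heme synthesis, fell to 376 ± 66.3 in fasting medium, against 641 ± 37.4 in control medium (-0.78, limma adjusted p = 6.42e-03; SD, n = 3 each throughout). ABCB10 was not called without moderation (limma adjusted p = 0.0842).

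All 3 listed transcription factors of the heme transport and sensing list were higher in fasting medium. Factors outside that list were not examined for action on HMOX1. BACH1, its repressor, had 1512, 1581 and 997 normalized counts in fasting replicates 1 to 3, against 612, 615 and 614 in control replicates 1 to 3. NFE2L2, which encodes NRF2, had 1087, 1124 and 1273 in fasting medium against 606, 637 and 587 in control medium, in the same order. MAFG, a small Maf partner of both, had 1966, 1986 and 2003 in fasting medium against 951, 917 and 1036 in control medium. Their log2 fold changes were 1.12 (limma adjusted p = 3.25e-03), 0.93 (limma adjusted p = 5.33e-04) and 1.04 (limma adjusted p = 1.69e-04), so that a repressor and an activator of HMOX1 rose at the messenger level together. BACH1 was not called with total-read scaling (0.69, adjusted p = 0.118) or without moderation (limma adjusted p = 0.0778).

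Over 11 role lists with 87 genes, 19 were listed (21.8%). The 19 include the 6 members, which were chosen among listed genes, so that share is partly fixed by the choice. Without the members 13 of 81 role genes were listed. The 11.8% listed among all genes the authors tested is not a like background, since those include genes that do not code for protein. Of 19684 protein-coding genes searched in GENCODE 29, 3071 were listed. The share of role genes without the members lay close to this, so no excess of listed role genes is shown. Of the 19 listed role genes 14 were higher in fasting medium (73.7%) and 5 lower (26.3%), beside 49.7% and 44.6% of all listed genes. Without the 6 members these were 10 and 3 of 13 listed genes, with a median log2 fold change of 1.00, beside 0.53 over all listed genes. The counts describe genes the authors had called. None of the iron export genes (SLC40A1, HEPH, CP and HAMP) and none of the iron sensing genes (ACO1, IREB2 and FBXL5) was listed. Of 10 messengers known to carry an iron-responsive element, FTL and TFRC were the 2 listed. With scaling to total listed reads, 9 role genes were called higher and 5 lower, and over all listed genes 879 were called higher and 1734 lower, against 1745 and 1567.

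**Figure D2:**
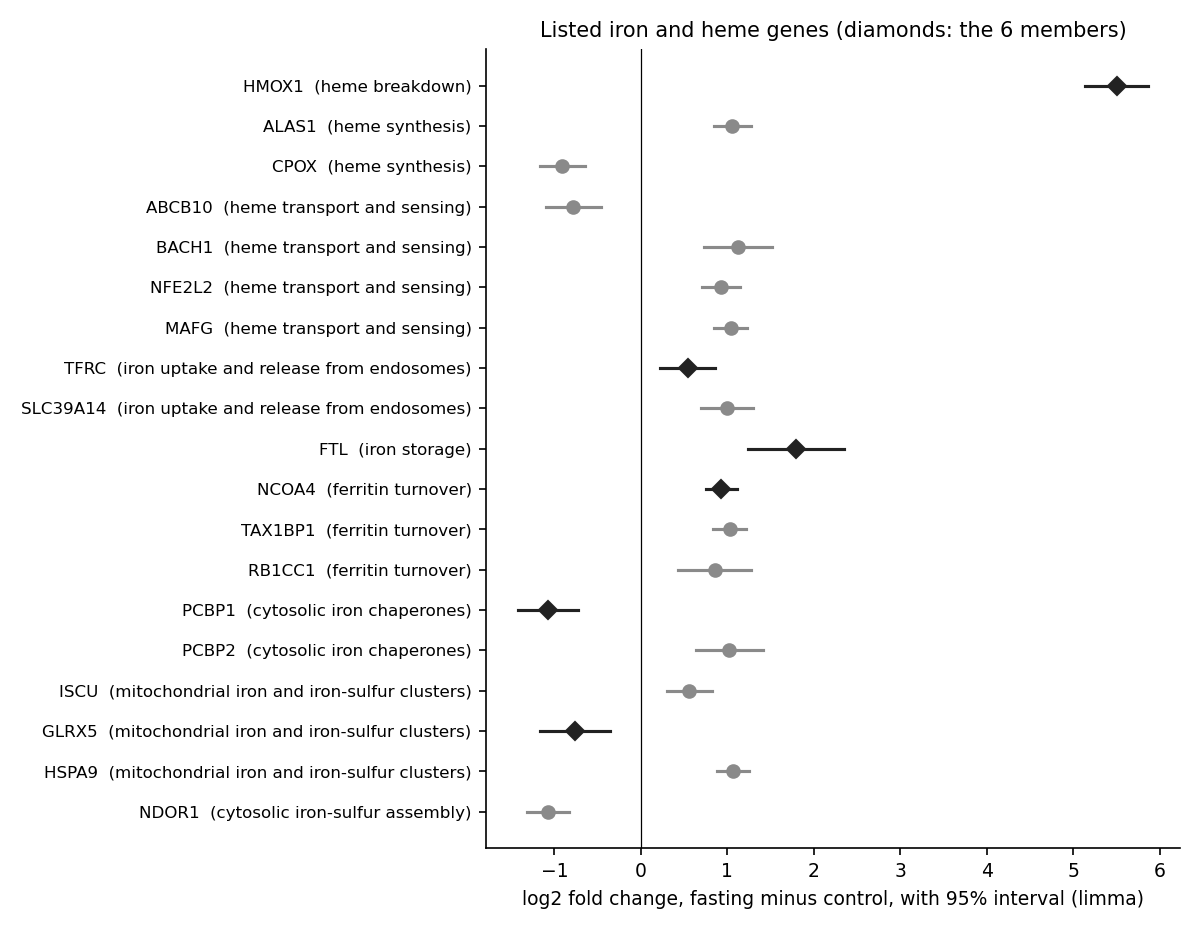
Log2 fold changes (fasting minus control) of the 19 listed iron and heme genes, with 95% intervals from limma. Diamonds are the 6 members and circles the other genes. HMOX1 lies at 5.50, and the other 18 genes lie between -1.08 and 1.80.

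The order of the members by level, per kilobase of transcript, differed between the media. In fasting medium it was FTL (72254.5 ± 28700 normalized counts per kilobase), HMOX1 (12616), NCOA4 (1688 ± 55.7), TFRC (1348 ± 246), GLRX5 (315 ± 83.1) and PCBP1 (206). In control medium it was FTL (19818 ± 1002), TFRC (916 ± 14.0), NCOA4 (887 ± 35.2), GLRX5 (526 ± 39.1), PCBP1 (441) and HMOX1 (275), with SD and n = 3 each. In control medium TFRC and NCOA4 overlapped, and so did GLRX5 and PCBP1. Lengths are those of the longest protein-coding transcript, so levels of genes with shorter isoforms are understated.

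For FTL, GLRX5, HMOX1 and TFRC, but not for PCBP1 or NCOA4, spread within the fasting group was tied to fasting replicate 3. The other fasting libraries differed from each other by at most 0.14 log2 units for any member. Fasting replicate 3 differed from their mean by 0.92 for FTL, 0.62 for GLRX5, 0.52 for HMOX1, 0.01 for PCBP1, -0.07 for NCOA4 and -0.49 for TFRC. Short transcripts lay high in it and the longest lay low, as for other listed genes, with PCBP1 as the exception among the members. Beside the 200 listed genes nearest in length, FTL lay above 94.5% of them, GLRX5 above 89.5% and HMOX1 above 75.5%. NCOA4 lay above 37%, TFRC above 22.5% and PCBP1 above 10.5%. FTL was thus also extreme for its length. What set that library apart was not tested.

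**Figure D3:**
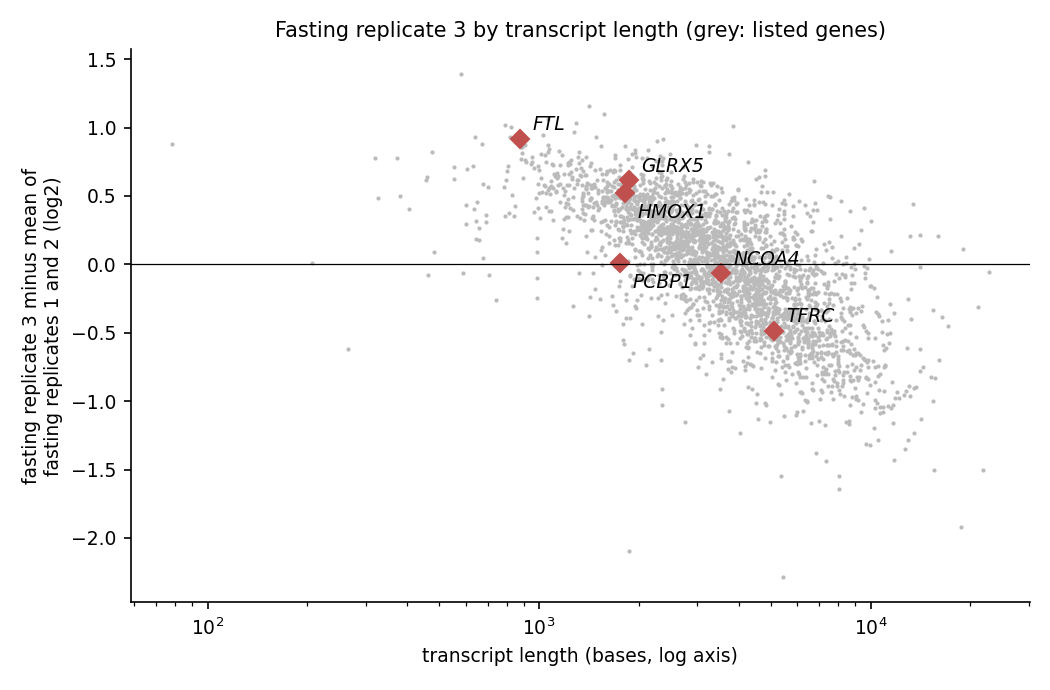
Log2 difference of fasting replicate 3 from the mean of fasting replicates 1 and 2 (vertical axis) against transcript length in bases (horizontal log axis), for 2886 listed genes (grey) and the 6 members (diamonds). FTL, the shortest member, lies at 0.92 and TFRC, the longest, at -0.49.

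Ratios of 2 members within a library do not depend on how libraries are scaled. There were 4 of these, and each was tested by an exact two-sided permutation test over the 6 libraries, whose smallest possible p is 0.1 with 3 against 3. All 4 gave an exact permutation p = 0.1, and also 0.1 after Benjamini-Hochberg adjustment over the 4, so the design could not pass 0.05. For FTL to PCBP1 that outcome was fixed in advance. The groups did not overlap for either gene and the 2 genes moved in opposite directions, so their ratio had to separate. The other pairs were formed from genes chosen with earlier results known, and their separation follows from the values printed above. Their p therefore adds no support either.

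The ratio of FTL to TFRC, storage against uptake, was 6.19, 6.67 and 17.0 in fasting replicates 1 to 3 and 3.57, 3.60 and 3.99 in control replicates 1 to 3. It was higher in all 3 fasting libraries, by 1.26 log2 units, but by 0.79 without fasting replicate 3 and by 0.27 with the length trend removed. HMOX1 reads per FTL read were 0.424, 0.397 and 0.312 in fasting replicates 1 to 3, against 0.0265, 0.0293 and 0.0304 in control replicates 1 to 3. That difference of 3.71 log2 units was many times the spread within either group (SD 0.23 in fasting medium and 0.10 in control medium).

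The ratio of FTL to PCBP1, its chaperone, was 137, 135 and 255 in fasting replicates 1 to 3 and 21.8, 18.2 and 30.0 in control replicates 1 to 3, a difference of 2.88 log2 units. NCOA4 reads per FTL read went the other way, at 0.132, 0.117 and 0.0628 in fasting replicates 1 to 3, against 0.190, 0.191 and 0.163 in control replicates 1 to 3. The difference was -0.87 log2 units, -0.54 without fasting replicate 3 and -0.12 with the length trend removed. These ratios compare reads, not molecules, since the transcripts differ in length.

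**Figure D4:**
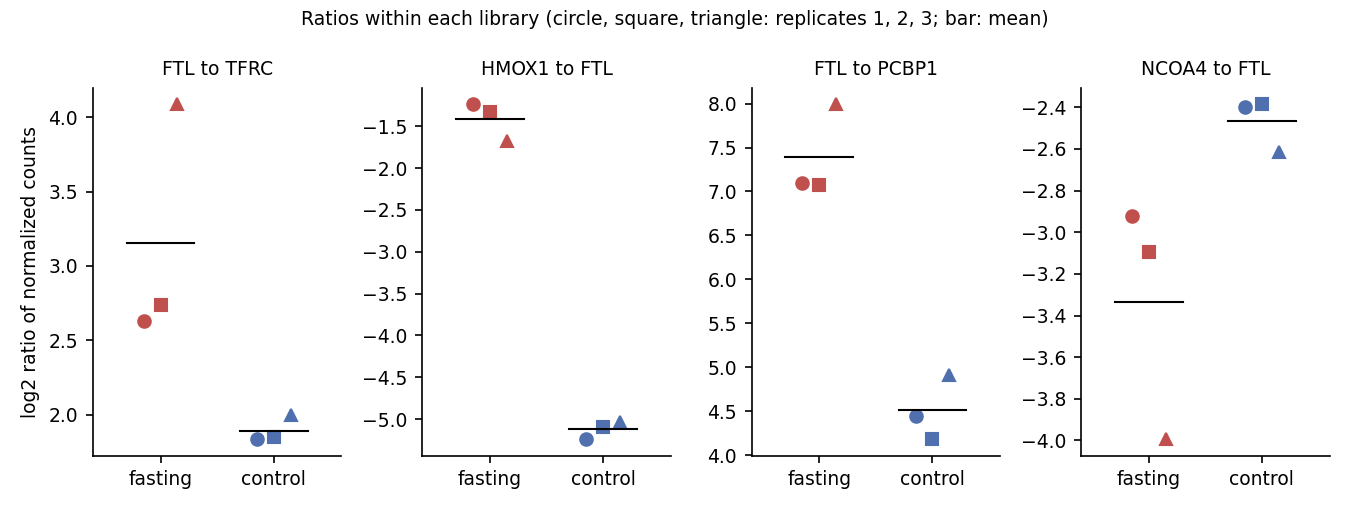
Log2 ratios of normalized counts within each library for 4 pairs of members, with fasting medium on the left and control medium on the right. Circles, squares and triangles are replicates 1, 2 and 3 and bars are means (n = 3 each). Fasting replicate 3 lies farthest from the other fasting libraries in each pair, and HMOX1 to FTL has the widest gap between the media (3.71 log2 units).

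Among 2721 other protein-coding genes (mean normalized count of 100 or more in either medium), the 3 nearest to each member were named. Likeness was the root mean square (RMS) difference of log2 profiles over the 6 libraries, each set to its control mean. HMOX1 had few close neighbours. Its nearest was ZFAND2A, an arsenite-inducible gene (RMS difference 0.14), followed by MMP10 (0.38) and CHAC1 (0.41). The nearest to FTL were SELENOK (0.09), ZNF581 (0.10) and KRT18 (0.10), and all 3 shared its high value in fasting replicate 3.

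The nearest to NCOA4 were BHLHE40 (0.01), CCDC50 (0.03) and TMEM39A (0.04), and the nearest to TFRC were FEM1C (0.03), ZFX (0.03) and ACSL4 (0.04). PCBP1 was nearest to MT-ATP8 (0.06), SENP3 (0.07) and FGFBP3 (0.09). All 3 had the same order of control libraries as PCBP1, with MT-ATP8 at 2151, 2671 and 1534 normalized counts in control replicates 1 to 3. GLRX5 was nearest to HMGN2 (0.04), SEMA6B (0.06) and STUB1 (0.07). With 2 groups and 6 libraries such profiles are short, and many genes share them.

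In the authors' deposited table the log2 fold changes were 5.52 for HMOX1, 1.87 for FTL, 0.93 for NCOA4, 0.56 for TFRC, -1.10 for PCBP1 and -0.74 for GLRX5. The adjusted p in the authors' deposited table ran from 1.81e-31 for HMOX1 to 0.0206 for TFRC. These are log2 ratios of group means.

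**Figure D5:**
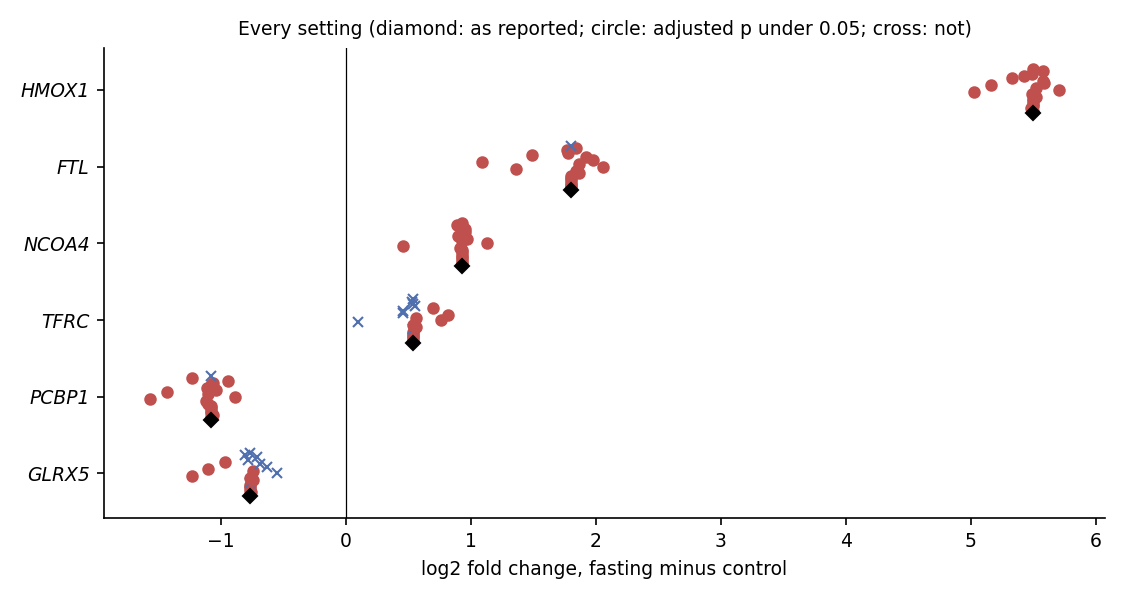
Log2 fold changes (fasting minus control) of the 6 members as reported and under 19 other settings. Black diamonds are the reported values, circles settings with an adjusted p under 0.05 and crosses settings without. No member changed sign, and crosses cluster at TFRC and GLRX5.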

How the data were processed

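The deposited table holds 6 sample columns of normalized counts with no named unit, a signal in which the authors had divided the reads of each gene by the size factor of its library. All values (100% per library, tolerance 0.01 read) were whole reads after division by the worth of 1 read, and size factors were 0.727 to 1.41. Further columns hold the authors' log2 fold change, their p-value and its adjusted form, per the file headers. The submitters' processing notes name DESeq 1.10.1, HTSeq 0.6.1 and UMI-tools 1.0.0. For the aligner, build and annotation nothing is given in the sources used here. Per the labels' protocols, libraries were strand-specific. Groups came from the treatment label of each sample, because all samples share 1 treatment text. The series also names drug treatments, not analysed here.

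limma 3.58.1 (trend, empirical Bayes, R 4.3.3) was fitted to log2(normalized count + 1) for all listed genes whose mean reached 1 in either group. Moderation was estimated on genes already selected for a difference. On simulated reads the fit was checked with known changes. edgeR 4.0.16 and DESeq2 1.42.0 were run on the recovered reads as alternatives, with the replicate block, other filters and scalings, and each library left out. Transcript lengths and elements came from GENCODE 29 (GRCh38), matched by Ensembl identifier, and 98.7% of listed genes had a length. Of the listed identifiers, 3467 had a symbol. Named genes are the 6 members, every listed role gene and the 3 nearest genes to each member. Members and lists were chosen with earlier results of these data known.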

Additional observations from a re-analysis of the deposited data

How the results depend on the processing

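No member changed sign under any of the 19 alternatives. HMOX1 and NCOA4 were called under all of them. Without moderation (limma, a setting chosen after seeing the data), FTL (1.80, adjusted p = 0.0615), TFRC (0.54, adjusted p = 0.271), PCBP1 (-1.08, adjusted p = 0.0536) and GLRX5 (-0.77, adjusted p = 0.230) were not called. That left 2 members called higher and 0 lower, where 4 and 2 had an unadjusted p under 0.05 and edgeR and DESeq2 with the authors' size factors called 4 and 2. It also left 1134 listed genes called higher and 847 lower, against 1745 and 1567, and 8 and 2 role genes, against 14 and 5. Without the mean-variance trend TFRC (0.54, adjusted p = 0.0891) and GLRX5 (-0.77, adjusted p = 0.0521) were not called, which left 1 member called lower. RLE scaling also left 1 (GLRX5 -0.55, adjusted p = 0.0826). With scaling to total listed reads TFRC was at 0.10 and not called, NCOA4 was at 0.46, 879 listed genes were called higher and 1734 lower, and 9 role genes were called higher and 5 lower. Relative to the authors' size factors, total-read scaling moved log2 fold changes by a median of -0.47, TMM by -0.02 and RLE by 0.20. These scalings were computed from reads of listed genes only, which were selected for a difference. Under the main fit the median log2 fold change of listed genes was 0.53. Scaling to total listed reads sets the summed listed reads of the libraries equal, so it takes out such a lean. Calls lost under it cannot be told apart from that selection. Why the settings differ otherwise was not tested.

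Leaving out each library in turn gave 0.46 to 0.70 for TFRC, -0.97 to -0.63 for GLRX5, 1.49 to 1.98 for FTL, 5.33 to 5.59 for HMOX1, 0.89 to 0.95 for NCOA4 and -1.23 to -0.94 for PCBP1, and 1 to 2 members called lower and 3 to 4 higher. With the length trend removed, the log2 ratio difference was 0.27 for FTL to TFRC, 4.08 for HMOX1 to FTL and -0.12 for NCOA4 to FTL. Same-numbered libraries had correlations of 0.025, 0.046 and 0.083 in their deviations, so the numbers were not taken as pairs. With the replicate block, TFRC (0.54, adjusted p = 0.0416) and GLRX5 (-0.77, adjusted p = 0.0368) stayed called, and 1715 listed genes were called higher and 1578 lower. The lowest read count of a member was 264, for PCBP1 in fasting replicate 3.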

Other observations

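GLRX, FTH1P7 and FTH1P8, chosen after their values were seen, also stood in the table. GLRX encodes the cytosolic glutaredoxin with an active site of 2 thiols. It had 6284, 6613 and 8714 normalized counts in fasting replicates 1 to 3, against 3233, 3197 and 3009 in control replicates 1 to 3. Its log2 fold change was 1.18 (limma adjusted p = 7.36e-04), in the opposite direction to GLRX5. The ferritin heavy chain pseudogenes FTH1P7 and FTH1P8 averaged 25.2 ± 6.8 and 39.3 ± 15.4 normalized counts in fasting medium, and 5.6 ± 2.0 and 12.8 ± 2.5 in control medium (SD, n = 3 each). Their log2 fold changes were 2.0 (limma adjusted p = 3.25e-03) and 1.49 (limma adjusted p = 0.0163), on 17 to 40 reads per library in fasting medium and 4 to 22 in control medium. FTH1 itself was not listed, so these values cannot be set beside its own.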
